A study of Danio rerio with 6 samples.

Results

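The genes described here are the 124 entries, among 32057 in the deposited gene table, whose symbols belong to the oxidative phosphorylation families. They were taken by symbol alone: names beginning with nduf, sdha to sdhd, uqcr, cox and a digit, atp5, or the mitochondrial prefixes mt-nd, mt-co, mt-cyb and mt-atp. Of these, 111 are coded in the nucleus and 13 in the mitochondrial genome. The messenger RNA of single zebrafish (Danio rerio) embryos was sequenced at the 10-somite stage, when 10 pairs of trunk segments have formed. Of the embryos, 3 carried the genotype called 3etv, mutant for 3 Pea3 genes, and 3 were wild type (WT). Pea3 genes code for ETS-family transcription factors that respond to fibroblast growth factors. The labels name no allele, strain, clutch or library batch, so an effect of genotype and one of clutch or line cannot be told apart.

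Oxidative phosphorylation makes ATP in the inner mitochondrial membrane. Complexes I and II pass electrons from NADH and succinate to ubiquinone, complex III passes them to cytochrome c, and complex IV passes them to oxygen. Complexes I, III and IV pump protons, and the returning flow drives complex V, the ATP synthase. Mitochondrial DNA codes for a few core subunits, which are read from long transcripts that are cut into single messages. All other subunits, the whole of complex II and the assembly factors are coded in the nucleus and imported, so each of the complexes other than complex II joins products of both genomes.

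The Pea3 genes were read beside the genotype labels: etv1, etv5a and etv5b fell in 3etv, while etv4 did not pass (log2 fold change -0.52, edgeR adjusted p 0.0570). Message levels alone do not show which of these genes are mutated. Gene counts totalled from 18484238 to 21865288 per 3etv library and from 22446699 to 28841169 per WT library. Of 18533 genes that passed a filter on low counts, 31.3% differed between 3etv and WT at an edgeR adjusted p under 0.05, 15.9% higher and 15.4% lower in 3etv. That is the background against which the members are read. Levels are given for each embryo as CPM, which is the count over the TMM-adjusted library size; they are compared within a gene, since read counts per gene also depend on transcript length. Values for the 3 embryos of a group are listed in the order of their replicate numbers, errors are SD with n = 3 per group unless called SE, and SE belongs to the log2 fold change. The p-values measure the spread between these single embryos.

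Of 13 mitochondria-coded genes 0 differed between 3etv and WT, and their median log2 fold change was -0.019, which ranged from -0.12 without 3etv embryo 3 to 0.07 without 3etv embryo 1 or WT embryo 1, turning its direction. With edgeR 1 of them had an unadjusted p under 0.05, DESeq2 called 1 and limma voom called 0. Of 101 nuclear-coded members tested, 28 differed (27.7%, against 31.3% of all tested genes), 7 higher and 21 lower in 3etv. Their median log2 fold change was -0.10, against 0.0035 for all tested genes, and 71 of 101 (70.3%) had the lower estimate in 3etv, against 49.6% of all tested genes. The mitochondria-coded genes had the lower estimate in 3etv for 10 of 13 (76.9%), but they moved together from embryo to embryo. These are thus not separate observations, and no lean is read from their number. Of the 10, only mt-cyb and mt-nd1 stayed below 0 in each of 15 alternatives. Groups did not overlap for 38 nuclear-coded members that were lower and 16 that were higher in 3etv, against 22.4% and 22.7% of all tested genes, and for 0 of the mitochondria-coded ones. Among the 28, sdhda and cox7a1 passed the low-count filter only through the group in which they are high, so the filter favoured a difference in those 2. Whether the nuclear and mitochondrial sets differ from each other was not tested, and in whole embryos fewer cells of a type and less RNA per cell cannot be told apart. Of the members, 16 differed without 3etv embryo 2 and 16 without WT embryo 2. Fewer libraries were then tested, and fewer of all tested genes differed as well. The drop is thus not read as a trait of the members.

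**Figure D1:**
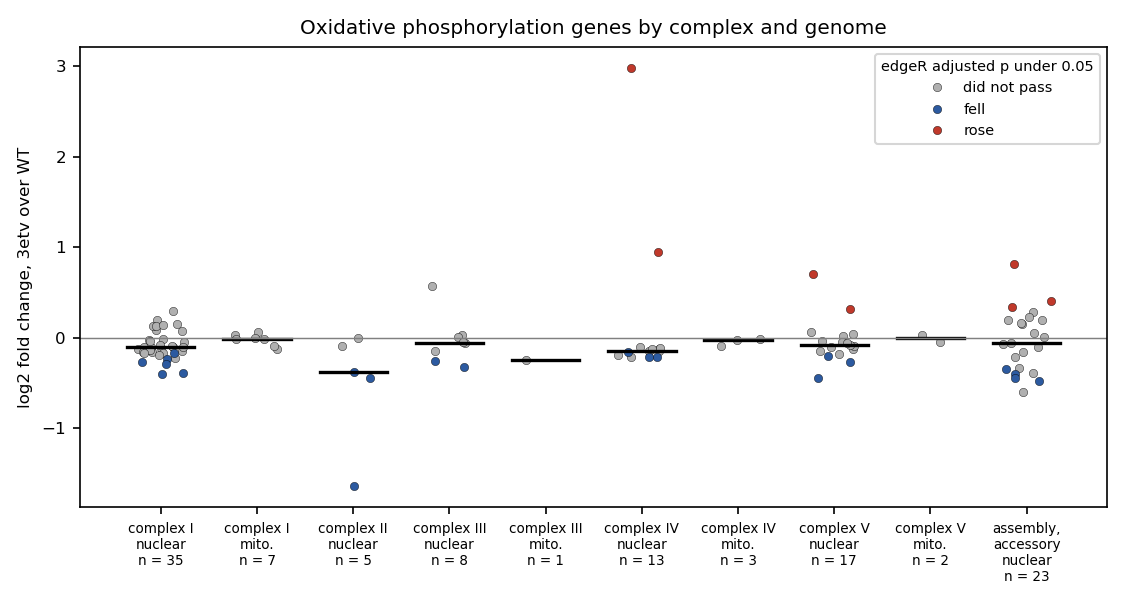
Log2 fold change, 3etv over WT, of each tested member (points), by complex and by coding genome, with the median of each class as a black bar. Red points rose and blue points fell at an edgeR adjusted p under 0.05. The mitochondria-coded classes hold only grey points, from -0.25 for mt-cyb to 0.064 for mt-nd3. Of these 10 of 13 lie below 0, as do 71 of the 101 nuclear-coded points, and cox7a1 lies farthest above.

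The 13 mitochondria-coded messages were examined first, by the complex their proteins enter. Their share of all gene counts was 2.45%, 2.66% and 3.07% in the 3etv embryos, against 3.15%, 2.76% and 2.77% in the WT embryos. The groups overlapped: the highest 3etv embryo, number 3, lay above WT embryos 2 and 3. The mean share was 2.73 ± 0.312% in 3etv and 2.89 ± 0.223% in WT.

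Complex I has 7 mitochondria-coded subunits, which form the core of its proton-pumping membrane arm. mt-nd1 (ENSDARG00000063895), which lies where the membrane arm meets the ubiquinone site, had 1204, 1354 and 1619 CPM in the 3etv embryos, against 1727, 1409 and 1409 CPM in the WT embryos. The groups overlapped (log2 fold change -0.12, SE 0.118, edgeR adjusted p 0.475). mt-nd4 (ENSDARG00000063917), one of the pump subunits, had 1425, 1695 and 1927 CPM in the 3etv embryos, against 1868, 1587 and 1614 CPM in the WT embryos, again with overlap (log2 fold change -0.0062, SE 0.104, edgeR adjusted p 0.972). The estimates for mt-nd2, mt-nd3, mt-nd4l and mt-nd5 ranged from -0.019 for mt-nd4l to 0.064 for mt-nd3, and none of them passed (edgeR adjusted p from 0.643 to 0.954). mt-nd6, coded on the other strand from the rest in vertebrates, had 735 ± 91.3 CPM in 3etv and 781 ± 96.8 CPM in WT (log2 fold change -0.087, SE 0.103, edgeR adjusted p 0.563). The libraries kept the strand of the RNA, per the labels' protocols, but the strand setting of the counting is not given in the sources used here, so the mt-nd6 values may hold reads of its opposite strand and are uncertain.

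mt-cyb (ENSDARG00000063924) codes for cytochrome b, the sole mitochondria-coded subunit of complex III, which carries both of its quinone sites. It had 2428, 2708 and 3214 CPM in the 3etv embryos, against 3729, 3148 and 3035 CPM in the WT embryos. The 3etv embryo 3 lay above WT embryos 2 and 3, and the other two 3etv embryos lay below all WT embryos. Its fall did not pass with edgeR (log2 fold change -0.25, SE 0.108, edgeR adjusted p 0.115), passed with DESeq2 (adjusted p 0.0435) and passed without 3etv embryo 3 (edgeR log2 fold change -0.36, adjusted p 0.0122). Over 15 alternatives its estimate ranged from -0.36 to -0.15, below 0 in each, and its adjusted p from 0.0122 to 0.305.

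Complex IV takes its catalytic core from mt-co1, mt-co2 and mt-co3. mt-co1 (ENSDARG00000063905), which holds the oxygen-binding site, had 9630.3, 9875 and 11228 CPM in the 3etv embryos, against 11237, 9980.0 and 9796 CPM in the WT embryos (log2 fold change -0.013, SE 0.071, edgeR adjusted p 0.908). mt-co2, which receives electrons from cytochrome c, had 2292 ± 361 CPM in 3etv and 2450.2 ± 178 CPM in WT (log2 fold change -0.096, SE 0.101, edgeR adjusted p 0.510). It joined mt-cyb as the other mitochondria-coded gene that passed without 3etv embryo 3 (log2 fold change -0.23, edgeR adjusted p 0.0354). Of 15 alternatives mt-co2 passed in this 1, and its estimate ranged from -0.23 to 8.8e-05. mt-co3 had 2973 ± 329 CPM in 3etv and 3031 ± 192 CPM in WT (log2 fold change -0.028, SE 0.077, edgeR adjusted p 0.810). The complex V subunits mt-atp6, part of the proton channel, and mt-atp8 gave log2 fold changes of 0.034 and -0.043 (edgeR adjusted p 0.864 and 0.961). mt-atp8 was the most variable mitochondria-coded gene, at 22.7, 25.2 and 52.4 CPM in the 3etv embryos, against 52.7, 27.4 and 23.4 CPM in the WT embryos. Its reading frame overlaps that of mt-atp6 in vertebrates, as mt-nd4l overlaps mt-nd4, and reads in such overlaps may have been counted for neither gene.

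**Figure D2:**
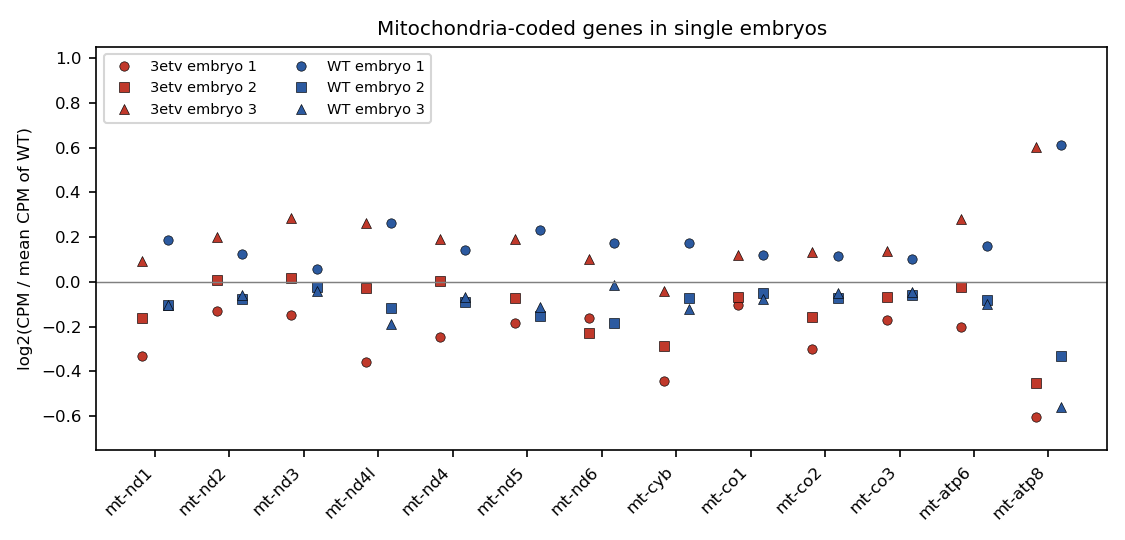
Log2 ratio of the CPM of each mitochondria-coded gene in each embryo (red: 3etv, blue: WT; circle, square and triangle: embryos 1, 2 and 3) to the mean of the WT embryos. In each of the 13 genes, 3etv embryo 3 is the highest 3etv embryo and WT embryo 1 the highest WT embryo, and the groups overlap.

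The mitochondria-coded genes moved together from embryo to embryo. In 3etv, embryo 3 had the highest value for 13 of 13 genes and embryo 1 the lowest for 12 of 13. In WT, embryo 1 was highest for 13 of 13. Over all tested genes the same embryos were highest for 33.8% and 39.3%. The gap between 3etv embryos 3 and 1 was 1.17-fold to 1.54-fold in the 12 genes other than mt-atp8. The median coefficient of variation was 14.9% in 3etv and 10.3% in WT, against 6.34% and 4.72% for the nuclear-coded members and 10.3% and 9.72% for all tested genes. The nuclear-coded members did not share this ordering, since 3etv embryo 3 was highest for 24 of 101 and WT embryo 1 for 34 of 101. In 3etv they had another order: embryo 1 was highest for 64 of 101 (63.4%, against 34.3% of all tested genes). In WT no embryo was highest for more than 40 of 101. A link between the 2 orders was not tested.

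A library measure moved with the mitochondria-coded share. Reads aligned at more than 1 place, which were left out of the gene counts, had a share of the reads in the table of 5.12%, 5.23% and 5.75% in the 3etv embryos, against 6.38%, 5.32% and 5.60% in the WT embryos. The 6 embryos fell in the same order by both shares. Pearson's r was 0.91 (exact permutation p 0.00278, adjusted over 4 relations 0.0111) and Spearman's rho was 1 (exact permutation p 0.00278, adjusted 0.0111; two-sided, n = 6). Without the 2 embryos farthest from the median on the first measure, 3etv 1 and WT 1, r was 0.87. The share of reads assigned to no gene gave r = 0.93 (exact permutation p 0.0222, adjusted 0.0444) and rho = 0.77 (exact permutation p 0.103, adjusted 0.206), falling to r = 0.63 without 3etv 3 and WT 1. Over the 6 embryos pooled, neither the gene total (r = -0.023, rho = 0.086, exact permutation p 0.978 and 0.919) nor the nuclear-coded share (r = -0.11, rho = 0.086, exact permutation p 0.828 and 0.919) gave such a relation. Pooling joins 2 groups whose nuclear-coded shares did not overlap. Within each group the embryo with the highest mitochondria-coded share, 3etv 3 (3.07%) and WT 1 (3.15%), had the lowest nuclear-coded share (0.538% and 0.591%). The relation within groups was not tested. These shares come from the same libraries, the relations were chosen after the values were seen, and the part of library make-up in the mitochondria-coded values was not tested.

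**Figure D3:**
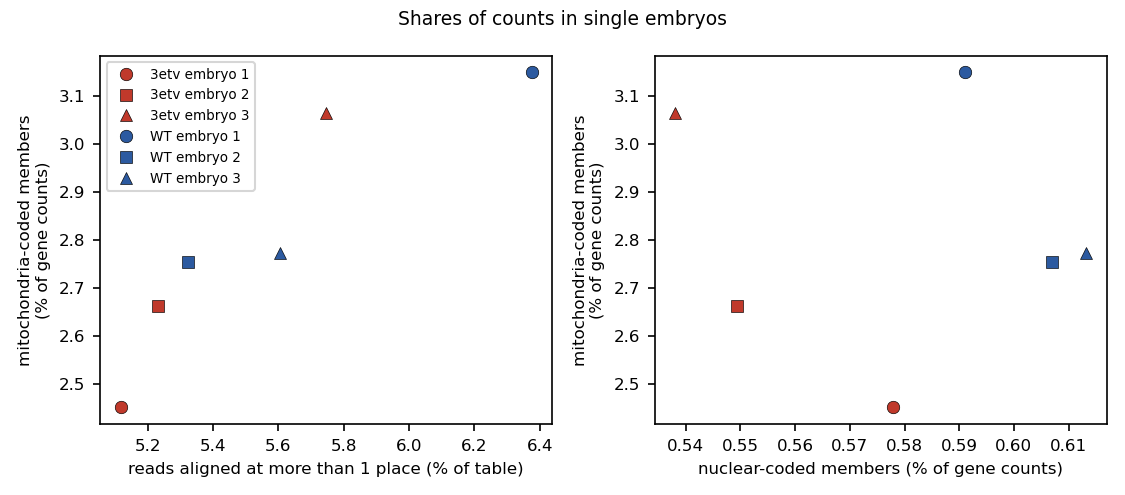
Share of gene counts in the 13 mitochondria-coded genes (vertical axis, both panels) against the share of reads aligned at more than 1 place (left) and against the share of gene counts in the 111 nuclear-coded members (right), 1 point per embryo. On the left the points rise together from 3etv embryo 1 to WT embryo 1. On the right the 3etv embryos lie left of the WT embryos, at 0.538% to 0.578% against 0.591% to 0.613%, with no trend over both groups pooled. Within each group, the embryo with the highest mitochondria-coded share has the lowest nuclear-coded share.

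The make-up of the mitochondria-coded pool was compared within each library, which removes the scaling. The share of mt-cyb in the pool was 9.74%, 10.1% and 10.3% in the 3etv embryos, against 11.8%, 11.6% and 11.2% in the WT embryos. The share of mt-nd1 was 4.83%, 5.06% and 5.17% in the 3etv embryos, against 5.48%, 5.18% and 5.20% in the WT embryos, and that of mt-nd2 was 6.33%, 6.47% and 6.32% in the 3etv embryos, against 5.97%, 6.02% and 6.12% in the WT embryos. In these 3 of 13 genes the groups did not overlap, mt-cyb and mt-nd1 lower and mt-nd2 higher in 3etv, where 33.2% of all tested genes had no overlap when scaled in the same way. Each of the 3 gave an exact permutation p of 0.1, the smallest that 3 against 3 allows, and 0 of 13 passed with edgeR when counts were scaled to the pool, where 20% of all tested genes passed. In that fit all tested genes were scaled to the pool and shared the estimate of spread. The SE of mt-co1 was 0.148 there, against 0.071 in the main fit. The lack of calls thus does not decide whether the make-up differs, and the shares of all tested genes are not a like background. For mt-cyb that fit gave no pass (log2 fold change -0.20, SE 0.143, adjusted p 0.377). mt-co1 was the source of 37.1 ± 1.41% of the pool in 3etv and 36.2 ± 0.542% in WT.

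The summed share of gene counts of the nuclear-coded members was 0.578%, 0.549% and 0.538% in the 3etv embryos, against 0.591%, 0.607% and 0.613% in the WT embryos. Each 3etv embryo lay below each WT embryo. By complex, the summed share did not overlap for subunits of complexes I, II, III and IV and overlapped for complex V. It was 0.127% to 0.135% in 3etv and 0.140% to 0.142% in WT for complex I. It was 0.102% to 0.107% in 3etv and 0.116% to 0.122% in WT for complex IV and 0.200% to 0.223% in 3etv and 0.217% to 0.232% in WT for complex V. The assembly and accessory factors overlapped as well. These shares are not TMM-scaled, unlike the CPM. The TMM factors were 0.980 to 0.996 in 3etv and 0.9999 to 1.025 in WT, so that scaling would bring the groups closer. No test is given for these sums, and no share of non-overlap was computed for sums of other genes. The nuclear to mitochondrial balance, as nuclear-coded counts per mitochondria-coded count, was 0.236, 0.206 and 0.175 in the 3etv embryos, against 0.188, 0.220 and 0.221 in the WT embryos. The groups overlapped in this ratio.

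**Figure D4:**
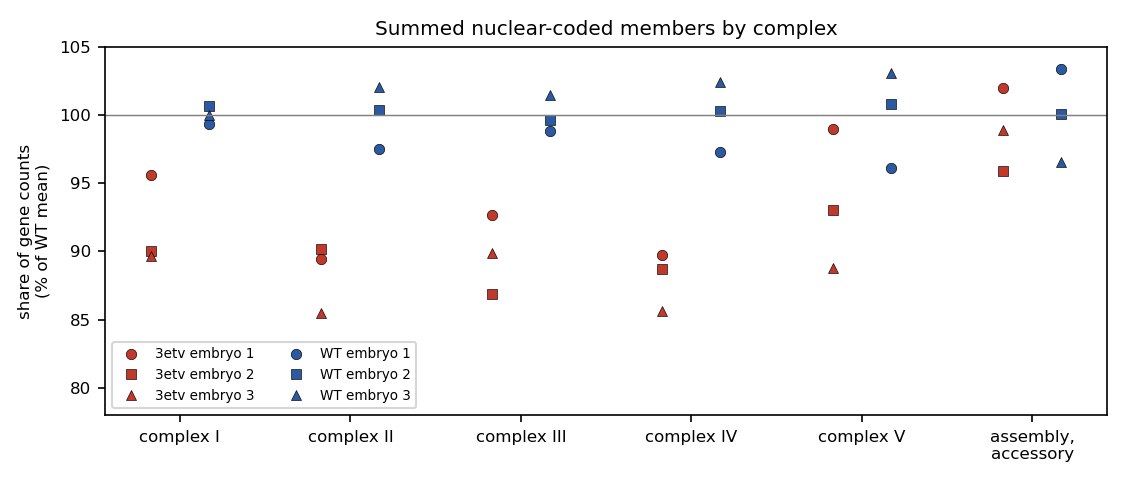
Summed nuclear-coded members of each complex as a share of gene counts, without TMM scaling, in percent of the WT mean, 1 point per embryo (red: 3etv, blue: WT). For complexes I to IV every 3etv point lies below every WT point, while complex V and the assembly and accessory factors overlap.

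Complex I, which oxidises NADH, had 35 nuclear-coded subunits tested, of which 0 rose and 6 fell (17.1% differing, against 31.3% of all tested genes). Their median log2 fold change was -0.11. The clearest fall was in ndufab1a (ENSDARG00000058463), the mitochondrial acyl carrier protein, which sits in complex I and also serves fatty acid synthesis. It had 54.8, 50.5 and 54.2 CPM in the 3etv embryos, against 72.8, 70.6 and 66.6 CPM in the WT embryos, with no overlap (log2 fold change -0.40, SE 0.068, edgeR adjusted p 7.16e-04). Its paralogue ndufab1b had 39.3, 38.4 and 40.6 CPM in the 3etv embryos, against 45.9, 42.05 and 45.3 CPM in the WT embryos and did not pass (log2 fold change -0.17, SE 0.072, edgeR adjusted p 0.0844). The membrane-arm subunit ndufa11 had 13.3, 13.9 and 12.6 CPM in the 3etv embryos, against 18.1, 18.1 and 16.2 CPM in the WT embryos (log2 fold change -0.40, SE 0.098, edgeR adjusted p 0.00808). ndufs6, a zinc-binding subunit of the arm in the matrix, had 29.9, 30.3 and 30.0 CPM in the 3etv embryos, against 36.8, 38.1 and 35.6 CPM in the WT embryos (log2 fold change -0.29, SE 0.074, edgeR adjusted p 0.00836). The groups did not overlap for either of these genes.

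ndufb7, on the outer face of the membrane arm, also fell (log2 fold change -0.27, edgeR adjusted p 0.0126). ndufc2 (log2 fold change -0.23, edgeR adjusted p 0.0483) was close to the threshold and passed in 5 of 15 alternatives. ndufa10, among the most deeply counted complex I genes, had 95.8 ± 10.9 CPM in 3etv and 91.3 ± 1.19 CPM in WT and did not pass (adjusted p 0.525).

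In complex II, succinate dehydrogenase, the membrane anchors sdhc and sdhdb fell and the catalytic subunits did not pass. sdhc (ENSDARG00000038608), which with sdhd holds the enzyme in the membrane and binds ubiquinone, had 20.5, 20.8 and 17.7 CPM in the 3etv embryos, against 26.0, 27.2 and 27.2 CPM in the WT embryos (log2 fold change -0.44, SE 0.09, edgeR adjusted p 0.00222). Its highest 3etv value lay below its lowest WT value. sdhdb (ENSDARG00000030139), 1 of 2 sdhd paralogues, had 11.3, 12.8 and 12.8 CPM in the 3etv embryos, against 16.5, 13.9 and 17.9 CPM in the WT embryos (log2 fold change -0.38, SE 0.116, edgeR adjusted p 0.0223). The call of sdhdb was kept in 11 of 15 alternatives. The other paralogue, sdhda (ENSDARG00000055712), was near the detection limit, with 2, 4 and 5 counts in the 3etv embryos, against 12, 17 and 17 counts in the WT embryos (log2 fold change -1.64, SE 0.474, edgeR adjusted p 0.0180). It passed the low-count filter through the WT embryos alone, so the filter favoured a difference, and it lost the call in 5 of 14 alternatives.

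The flavoprotein sdha, where succinate is oxidised, had 61.3, 60.8 and 61.7 CPM in the 3etv embryos, against 59.9, 62.9 and 60.8 CPM in the WT embryos (log2 fold change 9.9e-04, SE 0.063, edgeR adjusted p 0.992). These values lay within 59.9 to 62.9 CPM over both groups. The iron-sulphur subunit sdhb had 47.5 ± 2.52 CPM in 3etv and 50.7 ± 0.484 CPM in WT and did not pass (log2 fold change -0.093, SE 0.069, edgeR adjusted p 0.334), although its 3 embryos per group did not overlap. The difference between anchors and catalytic subunits was not tested.

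Of 8 nuclear-coded complex III subunits tested, 0 rose and 2 fell (25% differing, against 31.3% of all tested genes). Their log2 fold changes ranged from -0.32 to 0.58, the highest in a gene that did not pass. The estimate was lower in 3etv for 5 of 8 (62.5%, against 49.6% of all tested genes). uqcrc1 (ENSDARG00000052304), a core protein on the matrix side, had 85.2, 73.6 and 75.9 CPM in the 3etv embryos, against 93.9, 97.9 and 102 CPM in the WT embryos, without overlap (log2 fold change -0.32, SE 0.07, edgeR adjusted p 0.00359). uqcrq, a small subunit beside cytochrome b, fell as well (log2 fold change -0.26, edgeR adjusted p 0.0220) and passed in 11 of 15 alternatives. uqcrfs1, the Rieske iron-sulphur protein, had 118 ± 1.56 CPM in 3etv and 122 ± 1.37 CPM in WT and did not pass (log2 fold change -0.048, SE 0.056, edgeR adjusted p 0.549), nor did the hinge protein uqcrh (log2 fold change -0.14, adjusted p 0.156).

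Complex IV, cytochrome c oxidase, held the largest rises among the members, in alternative isoforms of its subunits. Of 13 nuclear-coded subunits tested, 2 rose and 3 fell (38.5% differing, against 31.3% of all tested genes). The count includes cox7a1, whose entry to the test was tied to its difference, so the share is not read as an excess. cox7a1 (ENSDARG00000069464), the heart and skeletal muscle form of subunit 7A in mammals, had 49, 35 and 37 counts in the 3etv embryos, against 1, 9 and 10 counts in the WT embryos, or 2.09 ± 0.509 CPM in 3etv and 0.251 ± 0.184 CPM in WT (log2 fold change 2.98, SE 0.445, edgeR adjusted p 2.64e-04). Every 3etv embryo lay above every WT embryo. The gene passed the low-count filter through the 3etv embryos alone, so the filter favoured a difference. Tested without a filter it passed too (edgeR adjusted p 3.70e-08). That fit also lowered the adjusted p of atp5meb, which passed the filter in both groups (edgeR 1.22e-09, against 9.74e-05). The smaller value is therefore not read as stronger support. cox7a2a, the paralogue expressed outside muscle in mammals, had 35.3 ± 2.87 CPM in 3etv and 40.9 ± 2.10 CPM in WT and did not pass (log2 fold change -0.21, SE 0.082, edgeR adjusted p 0.0692). An entry outside the symbol rule, COX7A2 (1 of many), fell (log2 fold change -0.35, edgeR adjusted p 0.0186). Of the counts of cox7a1 and cox7a2a, without that entry, cox7a1 held 6.73%, 4.11% and 5.99% in the 3etv embryos, against 0.115%, 0.743% and 0.924% in the WT embryos.

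cox4i2 (ENSDARG00000022509), an alternative form of subunit 4 known in mammals from lung and from low oxygen, had 4.02, 5.29 and 3.65 CPM in the 3etv embryos, against 3.08, 2.43 and 1.24 CPM in the WT embryos (log2 fold change 0.95, SE 0.282, edgeR adjusted p 0.0223). The groups did not overlap, though WT embryo 1 came close to 3etv embryo 3, and the call was lost in 4 of 15 alternatives, among them leaving out 3etv embryo 2, WT embryo 2 or WT embryo 3 (edgeR adjusted p 0.103, 0.0509 and 0.0560). The main form, cox4i1, had 179 ± 5.30 CPM in 3etv and 196 ± 3.83 CPM in WT and did not pass (log2 fold change -0.13, SE 0.056, edgeR adjusted p 0.0935). The subunits that fell were cox6b2, at 189, 188 and 191 CPM in the 3etv embryos, against 209, 214 and 211 CPM in the WT embryos (log2 fold change -0.16, SE 0.053, edgeR adjusted p 0.0362; passed in 7 of 15 alternatives), cox6c (log2 fold change -0.22, edgeR adjusted p 0.0224) and cox7b (log2 fold change -0.22, edgeR adjusted p 0.0187), all accessory subunits around the catalytic core. The duplicated genes cox5aa and cox5ab, which bind near the matrix side, gave -0.14 and -0.12 and did not pass (adjusted p 0.160 and 0.306), and nor did cox6a1 (log2 fold change -0.098, edgeR adjusted p 0.268), cox8a (log2 fold change -0.15, edgeR adjusted p 0.0704) or ndufa4l of the NDUFA4 family (log2 fold change -0.12, edgeR adjusted p 0.118).

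Since cox7a1 is a muscle isoform in mammals, markers of muscle and of other embryonic tissues were read beside it. Of 9 skeletal muscle markers, 1 rose and 7 fell in 3etv, and their summed level was 246 to 299.7 CPM in 3etv and 415 to 476 CPM in WT. The one that rose was acta1b, a skeletal muscle actin (log2 fold change 0.53, edgeR adjusted p 0.00393). Of 4 heart markers 1 was tested and did not pass, with a summed level of 1.52 to 2.82 CPM in 3etv and 2.01 to 4.24 CPM in WT. Primitive blood markers had 0 rises and 2 falls among 4 (summed 8.88 to 10.7 CPM in 3etv and 13.6 to 14.4 CPM in WT). Markers of the yolk syncytial layer had 4 rises and 1 fall among 5 tested (summed 709 to 886 CPM in 3etv and 512 to 565 CPM in WT). Notochord markers had 2 rises among 4 (summed 602 to 664 CPM in 3etv and 559.6 to 578 CPM in WT), and periderm markers had 1 rise and 1 fall among 4 (summed 11301 to 11590.1 CPM in 3etv and 11202 to 12689 CPM in WT). The share differing was 88.9% of the tested skeletal muscle markers and 100% of those of the yolk syncytial layer. It was 50% for each of primitive blood, notochord and periderm, against 31.3% of all tested genes. None of these markers was at 0 in all 6 libraries, though nppa, a heart gene, had at most 1 count in any, and the part of any tissue in the values of the members was not tested.

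**Figure D5:**
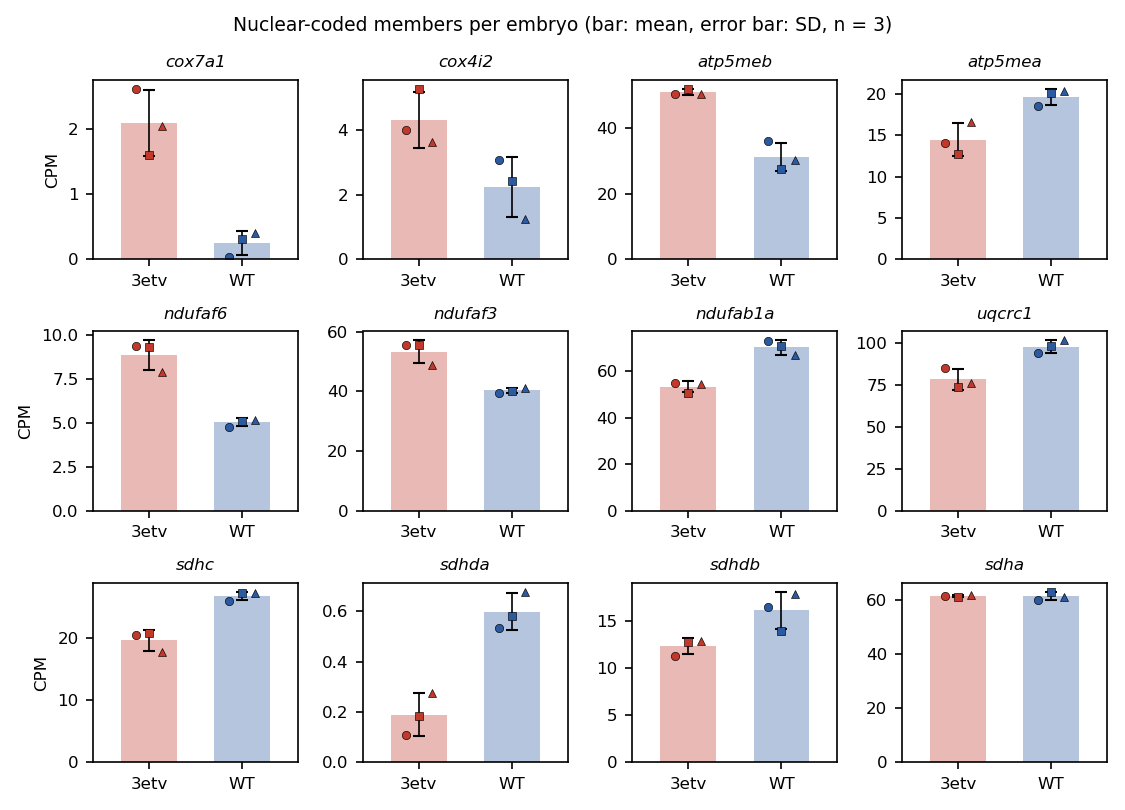
CPM of 12 nuclear-coded members in each embryo (points), with the group mean (bar) and SD (error bar), 3etv left of WT, each axis starting at 0. The upper panels show cox7a1, cox4i2, atp5meb, ndufaf6 and ndufaf3, which rose, beside atp5mea, ndufab1a and uqcrc1, which fell. The lower row shows the complex II genes, where sdhc, sdhda and sdhdb are lower in 3etv and the sdha values overlap.

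Complex V, the ATP synthase, had 17 nuclear-coded subunits tested, of which 2 rose and 3 fell (29.4% differing, against 31.3% of all tested genes). Both directions were seen in duplicated genes for subunit e, a membrane protein at the interface of ATP synthase dimers. atp5meb (ENSDARG00000068940) had 50.6, 52.2 and 50.4 CPM in the 3etv embryos, against 36.1, 27.5 and 30.4 CPM in the WT embryos (log2 fold change 0.71, SE 0.093, edgeR adjusted p 9.74e-05). atp5mea (ENSDARG00000078113) had 14.03, 12.8 and 16.6 CPM in the 3etv embryos, against 18.6, 20.1 and 20.4 CPM in the WT embryos (log2 fold change -0.45, SE 0.109, edgeR adjusted p 0.00709). Within each library, which removes the scaling, the share of atp5meb in the counts of the pair was 78.3%, 80.3% and 75.2% in the 3etv embryos, against 66.04%, 57.8% and 59.9% in the WT embryos. The log2 ratio of the pair averaged 1.83 ± 0.215 in 3etv and 0.663 ± 0.265 in WT without overlap (exact permutation p 0.1, two-sided, the smallest that 3 against 3 allows).

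Of 10 paralogue pairs compared by such ratios, a set chosen after the values were seen, 5 did not overlap between the groups, which is given as a description. For single genes, 45.1% of all tested genes did not overlap in CPM; no such share was computed for ratios. Besides atp5meb with atp5mea they were cox7a1 with cox7a2a, cox4i2 with cox4i1, ndufab1a with ndufab1b and sdhda with sdhdb. The pairs with cox7a1 and sdhda rest on genes that passed the filter through 1 group alone. The ratio was higher in 3etv for the first 3 of these pairs and lower for the last 2. For cox5aa and cox5ab the groups overlapped, the share of cox5aa in the pair being 64.7%, 64.9% and 64.7% in the 3etv embryos, against 64.5%, 66.1% and 65.04% in the WT embryos. The c-ring genes atp5mc3a and atp5mc3b overlapped in their ratio as well. Reads that paralogues share may have been dropped as aligned at more than 1 place, and nothing in the table shows how many.

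Elsewhere in complex V, atp5md, a small subunit also known as DAPIT, rose, with 44.8, 41.7 and 42.9 CPM in the 3etv embryos, against 35.01, 35.2 and 33.4 CPM in the WT embryos (log2 fold change 0.32, SE 0.072, edgeR adjusted p 0.00460). atp5l, subunit g, which lies beside subunit e, had 83.7, 76.6 and 72.2 CPM in the 3etv embryos, against 87.5, 95.2 and 96.95 CPM in the WT embryos (log2 fold change -0.27, SE 0.072, edgeR adjusted p 0.0124), and atp5mf, subunit f, fell as well (log2 fold change -0.20, edgeR adjusted p 0.0284), passing in 8 of 15 alternatives. All of these belong to the membrane part and the side stalk, of which 2 of 12 genes rose and 3 fell. Of the 5 subunits of the F1 part, which holds the catalytic head and the central stalk, 0 passed with edgeR. Of these, 1 had an unadjusted p under 0.05. Of all tested genes 31.3% differed, and the membrane and F1 parts were not tested against each other. The F1 subunits include atp5fa1 (368 ± 23.02 CPM in 3etv and 364 ± 16.4 CPM in WT, adjusted p 0.861) and atp5f1b (444 ± 24.1 CPM in 3etv and 484 ± 20.7 CPM in WT, log2 fold change -0.12, adjusted p 0.136), the alpha and beta subunits. The other isoform genes did not pass, with log2 fold changes given here in parentheses: the c-ring genes atp5mc1 (-0.089), atp5mc3a (-0.076) and atp5mc3b (0.036), and the inhibitory factors atp5if1a (-0.054) and atp5if1b (0.15), with edgeR adjusted p from 0.221 to 0.727.

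The assembly and accessory factors were split in direction. Of 23 tested, 3 rose and 4 fell (30.4% differing, against 31.3% of all tested genes), and their median was -0.054. For complex I, ndufaf6 (ENSDARG00000053652) had 9.37, 9.34 and 7.90 CPM in the 3etv embryos, against 4.77, 5.13 and 5.19 CPM in the WT embryos (log2 fold change 0.82, SE 0.135, edgeR adjusted p 5.71e-04), and ndufaf3 (ENSDARG00000112931) had 55.6, 55.4 and 48.7 CPM in the 3etv embryos, against 39.6, 40.1 and 41.2 CPM in the WT embryos (log2 fold change 0.40, SE 0.074, edgeR adjusted p 0.00125). Both proteins serve the assembly of complex I, and both messages rose without overlap. ndufaf5, which modifies the core subunit ndufs7 in mammals, had 14.5, 10.7 and 11.9 CPM in the 3etv embryos, against 16.3, 17.04 and 18.04 CPM in the WT embryos and fell (log2 fold change -0.47, SE 0.118, edgeR adjusted p 0.00792).

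For complex IV, the copper chaperone cox17 rose (log2 fold change 0.34, edgeR adjusted p 0.0209), while 3 factors fell: cox15, which makes the haem A of the catalytic core (9.64, 9.20 and 9.17 CPM in the 3etv embryos, against 11.9, 12.5 and 12.5 CPM in the WT embryos; log2 fold change -0.40, SE 0.106, edgeR adjusted p 0.0111), cox20, which handles newly made mt-co2 protein (log2 fold change -0.45, edgeR adjusted p 0.0262), and cox16 (log2 fold change -0.35, edgeR adjusted p 0.0338). cox17, cox16 and cox20 kept the call in 9, 9 and 10 of 15 alternatives. For complex II, 0 of 4 factors differed, against 31.3% of all tested genes, and so few genes do not set them apart from that share. The genes sdhaf1, sdhaf2, sdhaf3 and sdhaf4 gave log2 fold changes of 0.28, 0.19, -0.33 and 0.23 (edgeR adjusted p 0.371, 0.138, 0.271 and 0.236). In sdhaf1, sdhaf2 and sdhaf4 each 3etv embryo lay above each WT embryo, as in 22.7% of all tested genes. cox7a2l, which helps complexes III and IV join into supercomplexes, gave 0.17 and did not pass (adjusted p 0.215).

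Of the 124 members, 10 did not pass the low-count filter and were not tested. The entry named ndufs1, whose protein is a core subunit of complex I, had 0 to 2 counts in each library, so its level was not measured in a useful way here. cox4i1l, ndufa4l2a and ndufa4l2b had at most 3 counts in any library, and ndufs8b, cox5b2, cox6a2 and cox8b at most 9. ndufa4 had 7, 7 and 7 counts in the 3etv embryos, against 8, 26 and 40 counts in the WT embryos, and cox6b1 had 6, 3 and 3 counts in the 3etv embryos, against 6, 19 and 22 counts in the WT embryos. In both, WT embryos 2 and 3 stood apart and WT embryo 1 was at or near the 3etv values. Tested without a filter, both were called lower in 3etv (edgeR adjusted p 0.0215 and 0.0407). Another 4 entries spelled in capitals, COX5B, NDUFB1, COX7A2 (1 of many) and NDUFAF8, lie outside the symbol rule. Of these the COX7A2 entry fell and the others did not pass. Counting them would make 29 differing of 118 tested.

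Genes that serve the same pathway were read from lists beside the members, with 31.3% of all tested genes as the background. Among assembly factors outside the symbol rule, 4 rose and 4 fell among 33 tested (median -0.14). taco1, which activates translation of mt-co1 in mammals, had 8.14, 10.8 and 11.5 CPM in the 3etv embryos, against 2.77, 2.70 and 4.11 CPM in the WT embryos (log2 fold change 1.67, SE 0.190, edgeR adjusted p 3.34e-05). lyrm7, which helps insert the Rieske protein, rose (log2 fold change 0.69, edgeR adjusted p 0.00128). oxa1l, which inserts mitochondria-made proteins into the membrane (log2 fold change -0.57, edgeR adjusted p 5.71e-04), and higd1a (log2 fold change -0.76, edgeR adjusted p 7.04e-04) fell. Among genes for cytochrome c and for making ubiquinone, 0 rose and 2 fell among 15 tested: pdss2 (log2 fold change -0.61, edgeR adjusted p 0.00749) and coq8aa (log2 fold change -0.19, edgeR adjusted p 0.0469).

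Genes that copy, transcribe and process mitochondrial DNA and RNA bear on the mitochondria-coded messages. Of these, 3 rose and 5 fell among 32 tested (median -0.12). trmt10c, a subunit of the enzyme that cuts transfer RNAs out of mitochondrial transcripts, had 13.5, 13.4 and 14.3 CPM in the 3etv embryos, against 26.5, 22.96 and 24.1 CPM in the WT embryos (log2 fold change -0.83, SE 0.093, edgeR adjusted p 2.76e-05). twnk, the mitochondrial DNA helicase, rose (log2 fold change 0.40, edgeR adjusted p 9.45e-04), while rnaseh1 (log2 fold change -0.51, edgeR adjusted p 6.45e-04) and 1 of 2 entries named top1mt (-0.40, 0.00328) fell. Outside the naming rule, and chosen after their values were seen, tfam, which packages mitochondrial DNA and starts its transcription, fell (log2 fold change -0.20, edgeR adjusted p 0.0471), and the RNA polymerase polrmt had 20.2 ± 1.31 CPM in 3etv and 20.1 ± 1.94 CPM in WT (adjusted p 0.960).

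Among regulators of mitochondrial content, 1 rose and 3 fell among 19 tested: tfeb rose (log2 fold change 1.27, edgeR adjusted p 9.69e-05), and esrrb (log2 fold change -1.65, edgeR adjusted p 0.00409), mycb (log2 fold change -0.40, edgeR adjusted p 0.00533) and ppargc1b (log2 fold change -0.24, edgeR adjusted p 0.0383) fell. Mitochondrial ribosomal proteins, which translate the mitochondria-coded messages, had 3 rises and 15 falls among 74 tested (24.3% differing; median -0.13). The leading ones were mrps7, at 28.9 ± 1.86 CPM in 3etv and 49.04 ± 1.38 CPM in WT (log2 fold change -0.76, SE 0.076, edgeR adjusted p 1.09e-05), mrps34 (log2 fold change -0.49, edgeR adjusted p 8.36e-04), mrps17 (log2 fold change -0.54, edgeR adjusted p 0.00139) and mrps15 (log2 fold change -0.43, edgeR adjusted p 0.00168).

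On a list for the tricarboxylic acid cycle and pyruvate entry, which feed electrons to complexes I and II, 3 rose and 8 fell among 24 tested (45.8% differing, median -0.054). The list also held mdh1aa, mdh1ab and pck2, which are not enzymes of the cycle, and mdh1aa is among the 8 falls. pdhx, a structural part of pyruvate dehydrogenase, had 16.3, 14.9 and 14.4 CPM in the 3etv embryos, against 26.5, 22.4 and 25.1 CPM in the WT embryos (log2 fold change -0.70, SE 0.098, edgeR adjusted p 1.60e-04). dld, the shared dehydrogenase of that enzyme family (log2 fold change -0.39, edgeR adjusted p 3.46e-04), and dlst (log2 fold change -0.36, edgeR adjusted p 0.00108) fell as well. So did mdh1aa, the cytosolic malate dehydrogenase (log2 fold change -0.47, edgeR adjusted p 0.00166), while mdh2, the mitochondrial enzyme of the cycle, did not pass (log2 fold change 0.064, edgeR adjusted p 0.512). Among genes for carriers, channels, uncoupling proteins and creatine kinases around ATP synthesis, 4 rose and 3 fell among 12 tested (58.3% differing). The creatine kinases are enzymes and not carriers. Of these, ckma and ckmb are among the falls and ckmt1 is among the rises. ucp2, an uncoupling protein of the inner membrane, had 131, 139 and 132 CPM in the 3etv embryos, against 57.8, 60.5 and 52.6 CPM in the WT embryos (log2 fold change 1.24, SE 0.068, edgeR adjusted p 5.99e-08). ucp1 (log2 fold change 1.71, edgeR adjusted p 0.00110) and the outer membrane channel vdac1 (log2 fold change 0.46, edgeR adjusted p 2.40e-04) rose, and the muscle creatine kinase ckma fell (log2 fold change -1.46, edgeR adjusted p 0.00166).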

How the data were processed

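Strand-specific libraries of poly-A RNA from 6 single 10-somite zebrafish embryos were sequenced, 3 of genotype 3etv and 3 WT. The authors deposited raw counts per Ensembl gene, whole numbers without normalization, made with STAR and HTSeq on GRCz11 per the submitters' processing notes; versions, annotation release and strand setting are not given in the sources used here. The header line has a space for a tab between 2 names, so the names were read by splitting it at white space. The 5 summary entries of the table, for reads assigned to no gene or aligned at more than 1 place, were left out of library sizes and tests; 52.8% to 53.6% of the reads were assigned to no gene, and genes held 39.7% to 41.7% of the reads.

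The main test was the quasi-likelihood test of edgeR 4.0.16 under R 4.3.3 (filterByExpr by group, TMM, robust fit with genotype as sole term), with Benjamini-Hochberg adjustment over all 18533 tested genes and a threshold of 0.05. SE is the absolute log2 fold change over the square root of F. Alternatives included DESeq2 1.42.0, limma 3.58.1 (voom), other scalings and filters and leaving out each embryo. The edgeR fit was tested on simulated counts. A count of 3 corresponds to 0.103 to 0.166 CPM, which covers counting error only. Replicate libraries differed by more than sampling noise (lowest chi-square per degree of freedom 3.60), so each counts as 1 sample.

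The members and lists were chosen with earlier results of these data known, and the paralogue pairs and library relations after the values were seen. Named genes were every mitochondria-coded member, in each nuclear class the 4 differing genes with the lowest adjusted p and the 2 most deeply counted, members of the listed isoform families, and the 4 differing genes of each other list with the lowest adjusted p. Other names complete the differing and the untested members or the make-up of a list and were chosen after their values were seen. Mitochondrial rRNA and tRNA genes were not analysed here, no sequence was used, and 1 member is counted but not reported by name here.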

Additional observations from a re-analysis of the deposited data

How the results depend on the processing

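No alternative turned the direction of a differing member that was followed by name, and 12 of the 28 differing members passed in every alternative they were tested in. At an adjusted p under 0.01, 3460 of all genes, 12 members (also 12 nuclear-coded) and 9 subunits differed. With the replicate number as a block, 18 members (also 18 nuclear-coded) and 13 subunits differed, against 28 and 21, and the number of all tested genes differing was 4524, against 5801. Same-numbered embryos are different animals whose deviations from the group means correlated at -0.13 to -0.03. With so few embryos these values do not settle whether the numbers pair the samples. The labels name no clutch or batch, and a shared one was not tested. Leaving out single embryos gave 16 to 29 differing members, the same range of 16 to 29 for nuclear-coded ones, 11 to 23 subunits, 4247 to 5721 for all tested genes differing, and 0 to 2 mitochondria-coded genes. The fall to 16 came without 3etv embryo 2 or WT embryo 2, and subunits fell to 11 without 3etv 2 and to 12 without WT 2 or WT 3; fewer samples were then tested. The 2 mitochondria-coded calls, mt-cyb and mt-co2, appeared without 3etv embryo 3, and again, in an alternative chosen after seeing the data, without both WT 1 and 3etv 3 (2 calls). DESeq2 called 1, mt-cyb; the cause was not tested. The median log2 fold change ranged from -0.12 to -0.093 for nuclear-coded and from -0.03 to -0.0059 for mitochondria-coded members over scalings and filters, while leaving out embryos moved the mitochondria-coded median from -0.12 to 0.07. The mitochondria-coded share was lower in 3etv, as a difference of -0.17 percentage points, and of -0.34 to -0.029 when 1 embryo was left out. Sign changes of genes that passed in neither fit were not counted as reversals. Depth limits the lowest members, such as sdhda, at 17 counts or fewer per library.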
